A study of Drosophila melanogaster with 16 samples.

Results

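The regions described here were the pericentromeric ends of 4 chromosome arms of Drosophila melanogaster, taken by position alone as the last 2 Mb of 2L, 3L and X and the first 2 Mb of 3R in the dm3 assembly. In contact maps of 20-kb bins they comprised 100 bins each, 400 of the 6023 bins of a map. These bins start from 21020001 to 23000001 on 2L, from 22560001 to 24540001 on 3L, from 20440001 to 22420001 on X and from 1 to 1980001 on 3R. The cells were S2 cells, a macrophage-like line derived from late-stage embryos and analysed as a bulk culture. Control cells received double-stranded RNA against the bacterial lacZ gene and Lam-KD cells received double-stranded RNA against lamin Dm0, for 5 days according to the sample labels. The methods of the study give 4 days instead. Each condition had 2 Hi-C maps, 2 chromatin immunoprecipitation (ChIP) libraries made with an antibody against acetylated histone H3 (H3 pan-acetylation) and 2 libraries of the input DNA. The methods of the study call the samples of a condition biological replicates, and the labels name no separate cultures. P-values rest on the spread between these samples, with variance shared over windows or bins by the tests. Since the cells were pooled, a change in few cells cannot be told apart from a smaller change in all of them.

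Pericentromeric DNA of the fly is rich in repeats and packed into heterochromatin, which carries methylated histone H3 lysine 9, binds HP1 and holds few acetylated histones. In many nuclei the pericentromeric regions of different chromosomes gather in a common body, the chromocenter. Chromosome 4 is small and mostly heterochromatic. The arms 2L and 2R, and likewise 3L and 3R, lie on the 2 sides of the same centromere, whereas the centromere of X lies at the end of its single mapped arm. Lamin Dm0 is the B-type lamin of the nuclear lamina, the protein meshwork under the nuclear envelope that inactive chromatin contacts.

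The maps hold contacts after iterative correction, in which every bin is brought to about the same total. Their sums were 17532453 and 18504925 in control cells and 19238039 and 20679811 upon Lam-KD, and they were brought to an equal sum before comparison. From 87.13% to 87.99% of all contacts fell within arms. ChIP libraries held 13093678 and 13100860 reads in control cells but 30005502 and 30004808 upon Lam-KD, and input libraries from 1997575 to 3512310 reads. Depth of ChIP therefore cannot be told apart from condition. Reads with the same start had been removed, so a 1-kb bin could hold at most 2148 reads, and the densest bin reached 2063 in control cells and 2130 upon Lam-KD. The RNA tables of the series list genes by an identifier that could not be paired here with a symbol, so neither the level of lamin mRNA nor markers of the cell line were checked.

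The ends were covered unevenly. Of the 100 bins of each end, 90 on 2L, 95 on 3L, 81 on X and 100 on 3R had corrected contacts. The longest empty stretch was in X, where 16 bins at chrX:21520001-21840000 were empty, 600 to 920 kb from the edge of the assembly, and the next lay at chr2L:21420001-21540000. At 1-kb resolution, 14.92% of the bins of the 2L end, 13.72% of the 3L end, 13.02% of the X end and 3.8% of the 3R end had no input read in any library, against 2.417% to 4.521% in the rest of the arms. The density of input reads over the mean of the autosomal arms was 1.03 to 1.07 in the 2L end, 0.578 to 0.588 in the 3L end, 0.432 to 0.446 in the X end and 1.01 to 1.04 in the 3R end. The rest of X was itself at 0.62 to 0.64. The value of the 2L end averages an uneven profile, with 0.31 to 0.32 at 200 to 300 kb from the edge and 2.52 to 2.63 at 1300 to 1400 kb.

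Contacts within each end were first compared with contacts of the same arm at the same distance. The ends of 3L, X and 2L were denser inside than most of their arms, and the end of 3R was only slightly so. As log2 of the ratio to the rest of the arm, the 3L end stood at 0.36 and 0.37 in the 2 control maps, the X end at 0.35 and 0.37, the 2L end at 0.24 and 0.26 and the 3R end at 0.09 in both. All 60 windows of 2 Mb into which the 5 large arms can be divided from their pericentromeric side ranged from -0.20 to 0.31 without the 4 ends. Among all 60 the 3L end ranked 1, the X end 2, the 2L end 7 and the 3R end 17.

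The excess had a different reach in each end. Between bins 120 to 400 kb apart, the X end reached 0.74 ± 0.05 (SD, n = 2 maps, log2 over the rest of the arm), the 3L end 0.70 ± 0.01 and the 2L end 0.49 ± 0.02, the 3 highest of 60 windows. The 3R end was at 0.01 ± 0.01 in this class. Between bins 420 to 1000 kb apart, the 3L end was at 1.17 and 1.20 in the control maps, a 2.27-fold excess that only 1 window passed. The 2L end held 0.46 and 0.43 in this class, whereas the X end had dropped to 0.20 and 0.20. Over 1000 kb apart the X end was below its arm, at -0.54 and -0.57, and the 3R end above it, at 0.50 and 0.43. Bin pairs at such distances join the 2 flanks of each end, and in X they span the empty stretch of the contact map. At 40 to 100 kb the 3L end was slightly below its arm, at -0.14 and -0.12.

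**Figure D1:**
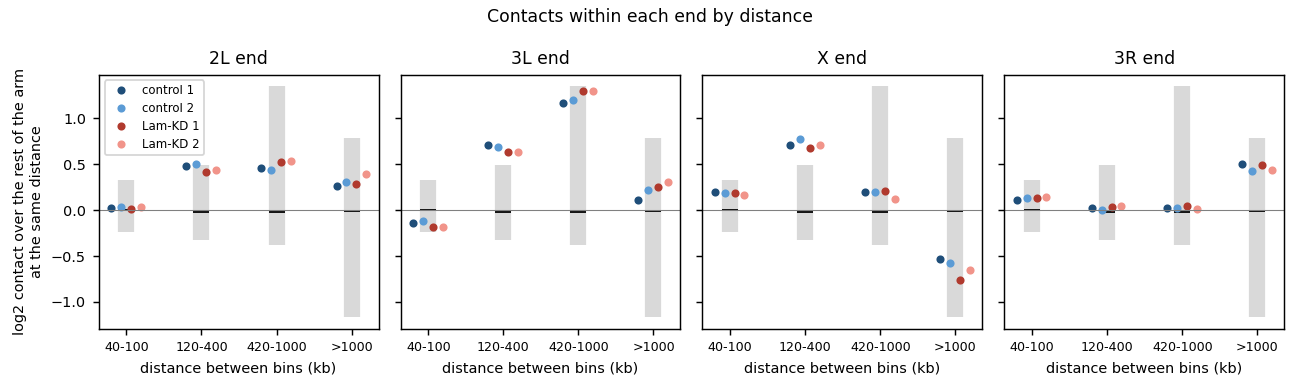
Contacts within each end by the distance between 20-kb bins (kb, x axis), as log2 of the mean corrected contact over the rest of the same arm at the same distance (y axis). Dots are the 2 control and 2 Lam-KD maps, grey bars span the other 2-Mb windows and black ticks mark their median. The 3L and X ends lie above all other windows at 120 to 400 kb, and in the 2L and 3L ends the Lam-KD maps lie below the control maps at 120 to 400 kb and above them at 420 to 1000 kb.

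In each end the excess was higher within the megabase next to the edge than within the megabase farther out. In the 3L end it stood at 0.47 and 0.48 in control maps against 0.01 and 0.02 for the megabase farther out, and in the X end at 0.65 and 0.68 against 0.19 and 0.22. In the 2L end the values were 0.37 and 0.41 near the edge and close to 0 farther out (-0.00 and -0.01). In the 3R end they were lower, at 0.17 and 0.19 near the edge and -0.05 and -0.05 farther out. The 2 megabases of the 3L end also met each other often, with a log2 excess of 0.92 and 0.96 over the rest of the arm, against 0.42 and 0.43 in the 2L end and 0.22 and 0.20 in the X end.

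Contacts between ends of different arms were sparse, with 4.86% to 16.09% of bin pairs above 0. Still, each of the 6 pairs of ends met more often than the rest of the same 2 arms did in each of the 4 maps. The pair of 2L and X had a mean corrected contact of 0.146 and 0.138 in control cells against 0.0737 and 0.0692 for the rest of these arms, a 1.98-fold excess and the highest of all 132 window pairs of these arms. The 3L and 3R ends, which flank one centromere, had 0.153 and 0.163 against 0.0941 and 0.0877, a 1.74-fold excess and rank 2 of 168. For 2L and 3R the values were 0.118 and 0.108 against 0.0779 and 0.0715, 1.51-fold and rank 8 of 168. The X end thus met the 2L end most often relative to its arm, with the 2 control maps close together.

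The remaining pairs stood out less. X and 3R had 0.0968 and 0.0884 against 0.0698 and 0.0651 (1.37-fold, rank 4 of 154), and 3L and X had 0.0901 and 0.0939 against 0.0711 and 0.0660 (1.34-fold, rank 6 of 132). The pair of 2L and 3L had the highest contact of the 6, 0.181 and 0.160 in the control maps, but its arms also met often elsewhere, at 0.147 and 0.143, so that it ranked 23 of 144 with a 1.18-fold excess. Its contacts were still more frequent than those of the 2L end with the rest of 3L (0.0825 and 0.0747) or of the 3L end with the rest of 2L (0.0736 and 0.0646).

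The opposite, telomere-side 2 Mb of the same arms were compared in the same way, since ends of arms may meet whatever their chromatin. In control cells the pericentromeric pairs were above the telomere-side pairs by 0.57 on the log2 scale for 3L and X, 0.49 for 2L and 3L, 0.45 for 2L and X and 0.31 for 3L and 3R. For X and 3R the difference was 0.00 and for 2L and 3R it was -0.09. Each of the 6 pericentromeric pairs exceeded the mixed contacts between a pericentromeric and a telomere-side end of the same arms, by 0.28 to 1.08 on the log2 scale. In 2 of 6 pairs contact was thus no greater on the pericentromeric than on the telomere side.

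Chromosome 4 was among the strongest partners of each end. In control cells the 2L end had a mean contact with chr4 of 0.293 and 0.296, the 3L end 0.206 and 0.208, the 3R end 0.187 and 0.187 and the X end 0.157 and 0.157, ranks 1, 3, 5 and 7 of 60 windows. The other windows had a median of 0.0976, and the highest of them, the pericentromeric window of 2R, had 0.225. Relative to the bins of all large arms outside the pericentromeric windows, contacts with chr4 were 2.95-fold higher for 2L, 2.07-fold for 3L, 1.87-fold for 3R and 1.57-fold for X. All 4 ends thus favoured the heterochromatic chromosome, most of all the 2L end.

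Ranked over all windows of other arms, the 2L end met the pericentromeric window of 2R across their shared centromere most often, at 0.523 and 0.528 in control cells, followed by chr4 and a window of 2R lying 2 Mb from its edge (0.204 and 0.192). For the 3L end the order was the pericentromeric window of 2R at 0.252 and 0.246, then chr4, then the 2L end. For the X end it was chr4, the 2L end and a window of 3L lying 4 Mb from its edge (0.119 and 0.132). For the 3R end it was chr4, the window of 3L next to the 3L end (0.162 and 0.168) and the 3L end itself. Apart from these 2 windows of 3L and one of 2R, each of the 3 strongest partners of every end was itself pericentromeric or chr4.

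Contacts with the rest of the same arm and with the other arms as a whole followed no common direction. Compared with other bins at the same distances, contacts with the rest of the arm were higher for 3R (log2 0.35 ± 0.00, SD, n = 2 maps, rank 3 of 60), slightly higher for 2L (0.12 ± 0.02) and X (0.10 ± 0.00) and lower for 3L (-0.38 ± 0.00, rank 59). Contacts with all other arms were higher for 3R (0.18 ± 0.00), near the arm's mean for X (0.00 ± 0.02) and lower for 2L (-0.16 ± 0.01) and 3L (-0.42 ± 0.02, rank 58). These values are relative to other bins of the same arms. Without that reference, the mean contact with all other arms was lowest in X among the 4 ends (rank 43 of 60) and the 3L end had rank 32. Iterative correction brings every bin to about the same total, so contacts inside and outside an end are not independent measures. Its part in these values was not tested, and the 3R end was above its arm both inside and outside.

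Along the ends, partners were not met evenly. In steps of 100 kb, contact with the other 3 ends declined away from the edge in X (Spearman's rho -0.80 over 17 steps of control maps) and 3R (-0.84 over 20), less so in 2L (-0.40 over 19), and not in 3L (0.34 over 20). Steps of an end share libraries and neighbours, so these values describe the profiles only. In the first step of 3R the contact with the other ends was 0.197 and 0.185 in control cells and in the last step it was 0.0854 and 0.0544. The highest value in X lay in the step 500 to 600 kb from the edge, on the border of this empty stretch, with 0.220 and 0.262 in control maps and 0.272 and 0.195 upon Lam-KD.

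**Figure D2:**
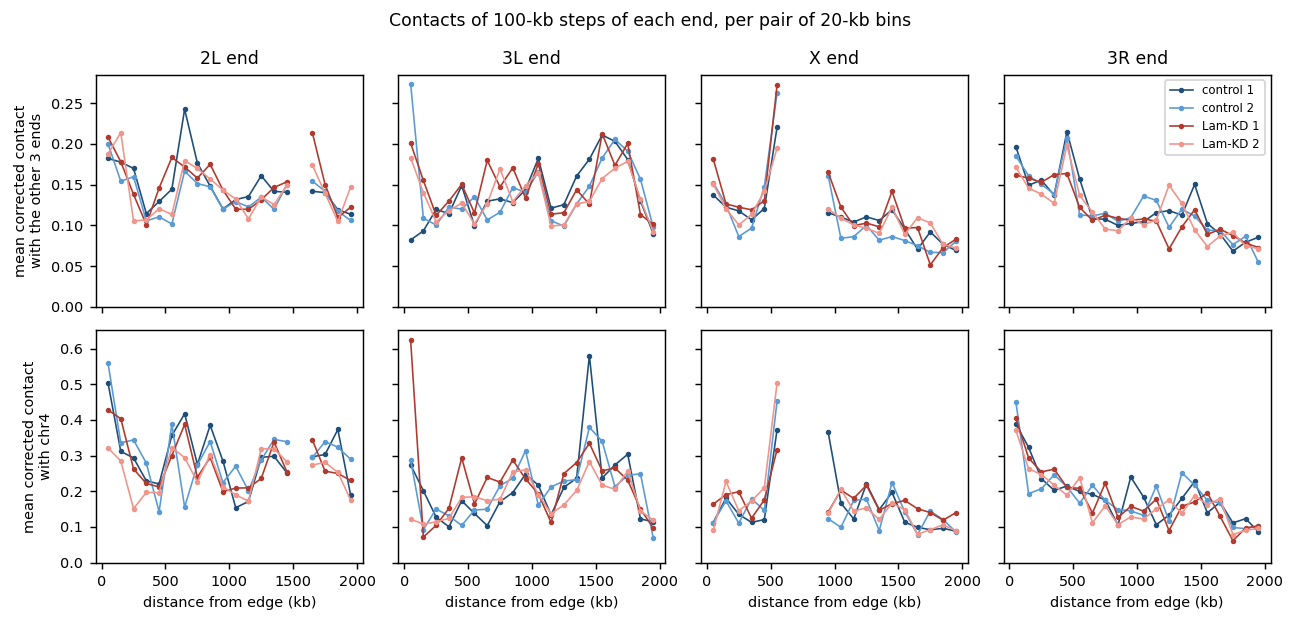
Mean corrected contact per pair of bins (y axis) of 100-kb steps of each end with the other 3 ends (upper panels) and with chr4 (lower panels) against distance from the edge of the arm (x axis, kb). Lines are the 2 control and 2 Lam-KD maps and breaks mark steps without data. Contact with the other ends declines away from the edge in X and 3R, and the maps of both conditions run through each other.

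H3 pan-acetylation was expressed as log2 of the ChIP reads over the input reads, after scaling each library to its reads on the autosomal arms. In control cells the ends of 2L and 3L were among the least acetylated windows of the genome. The 3L end was at -0.43 and -0.51, the 2L end at -0.37 and -0.48, the X end at -0.21 and -0.24 and the 3R end at -0.07 and -0.03. The rest of 2L, 3L and 3R lay between -0.04 and 0.03, the rest of X at 0.15 and 0.22, and chr4 at -0.83 and -1.02. In both-library means the rest of the arm was above the end by 0.47 in 3L, 0.41 in X, 0.38 in 2L and 0.07 in 3R, so the X end was as far below its more acetylated arm as the 2L end was below 2L.

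In the edgeR quasi-likelihood test of ChIP against input in control cells, with Benjamini-Hochberg adjustment over 61 windows, 21 windows (34.4%) were lower in ChIP. Among these were the ends of 2L (log2 -0.42, adjusted p = 0.00352), 3L (-0.47, adjusted p = 0.003) and X (-0.23, adjusted p = 0.00674), ranks 59, 60 and 56 from the highest, and chr4 (-0.92, rank 61). The 3R end (-0.05, adjusted p = 0.0518, rank 41) was not, although with TMM scaling it was (adjusted p = 0.0169), as it was with the replicate number as a block (adjusted p = 0.0386). It was also called without either control ChIP library. These fits left 1 ChIP library, so they rest on the spread of the inputs and on variance shared over windows. The other 3 ends were called lower without any one of the 4 libraries as well. At 20-kb resolution 290 of 387 testable bins of the ends were lower in ChIP than in input, which is 74.9% against 61% of all bins, and 50 (12.9%) were higher against 23.2% of all bins. With TMM scaling 205 of the 387 were lower and 85 higher, 53% and 22% against 35.1% and 34.9% of all bins. The lower bins made up 87.9% of the 3L end, 77.4% of the 2L end, 73.7% of the X end and 61% of the 3R end.

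The profile along the 2L, 3L and X ends showed long depleted stretches broken by single acetylated steps. In the 3L end each of the 10 steps next to the edge was depleted in control cells, from -0.85 to -1.18 (mean of both libraries), and the depletion reached to 1600 kb before a step at 0.38 and 0.43. In the X end the deepest value was in the step at 600 to 700 kb, with -1.41 and -1.74, within the stretch that is empty in the contact map. The 2L end had 17 of 19 steps with enough reads below 0, the steps at 500 to 600 kb (0.49 and 0.42) and at 1800 to 1900 kb (0.11 and 0.18) being above. In the 3R end 14 of 20 steps were below 0, the steps from 1000 to 1300 kb were all above it, and the highest lay at 1400 to 1500 kb (0.55 and 0.61). In the 3L, 3R and X ends steps with fewer input reads per kb were also less acetylated over input, but not in 2L. Spearman's rho was 0.73 and 0.62 over 20 steps in 3L and 3R, 0.52 over 17 in X and -0.02 over 19 in 2L. The part of coverage in these values was not tested.

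**Figure D3:**
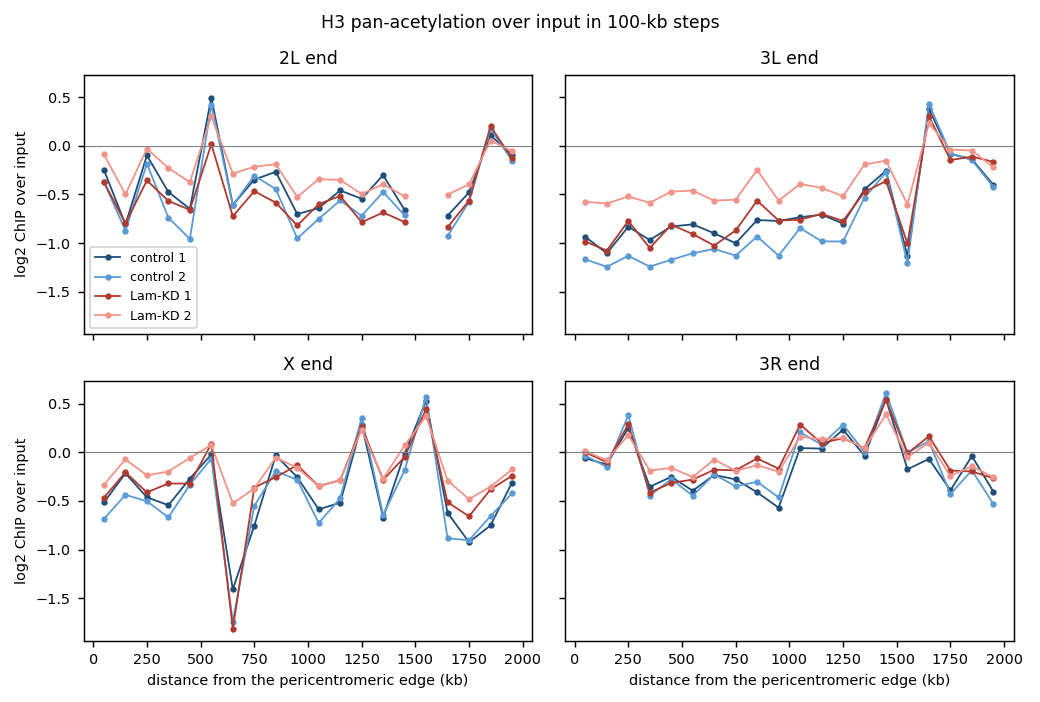
H3 pan-acetylation as log2 of ChIP over input reads (y axis) in 100-kb steps against distance from the pericentromeric edge (x axis, kb) in the 4 ends. Lines are the 2 control and 2 Lam-KD libraries, each over the input of the same label, and a step without enough input reads is left out. Over the first 1300 kb of the 3L end all 4 libraries are below 0, with the second Lam-KD library above the other 3.

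Single bins showed the extremes of each end. The most acetylated 20-kb bin was chrX:20920001-20940000 in the X end, with log2 over input of 1.13 and 1.19 in control cells and 0.95 and 0.90 upon Lam-KD. In the 3L end it was chr3L:22860001-22880000 (0.89 and 1.18, against 0.80 and 0.65 upon Lam-KD), in the 3R end chr3R:1280001-1300000 (0.88 and 0.97, against 0.55 and 0.51), and in the 2L end chr2L:21160001-21180000 (0.62 and 0.75, against 0.68 and 0.50). The bins lowest over input in control cells included chrX:21820001-21840000 (-2.08 and -2.62, against -2.63 and -0.74 upon Lam-KD). In the 3L end it was chr3L:23740001-23760000 (-2.21 and -1.90, against -0.44 and -0.50), a bin whose input reads differed between conditions, as given below. In the 2L end it was chr2L:22300001-22320000 (-1.67 and -2.004, against -1.58 and -0.97) and in the 3R end chr3R:420001-440000 (-0.92 and -1.20, against -0.80 and -0.52).

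Strongly acetylated 1-kb bins were few in the ends and in the rest of the arms. Only bins with at least 10 input reads in each control library were counted. This left 1313 of 1991 bins in the 2L end, 850 of 1983 in 3L, 499 of 1982 in X and 1651 of 2000 in 3R. Bins above 4-fold over input in control cells made up 0.228% of these in the 2L end (3 bins) and 0.471% in the 3L end (4 bins). In the X end it was 1.60% (8 bins) and in the 3R end 0.666% (11 bins). In the rest of the arms the shares were 0.739% for 2L, 0.690% for 3L, 3.02% for X and 0.659% for 3R. The highest bin of the 3L end, chr3L:23252001-23253000, had 760 and 879 ChIP reads against 22 and 21 input reads in control cells, and 1595 and 1408 against 21 and 34 upon Lam-KD. In the highest bin of the 2L end, chr2L:22467001-22468000, ChIP reads were 1757 and 1775 in control cells and 2069 and 2058 upon Lam-KD, close to the most that a bin can hold, so that its fall over input from 2.06 and 2.09 to 0.82 and 0.92 cannot be told apart from saturation.

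Upon Lam-KD, contacts within the ends changed by a few percent at most. The 3R end went from 20.58 and 20.85 in control maps to 21.41 and 21.41, which limma gave as a log2 change of 0.048 ± 0.010 (SE, n = 2 maps per condition, Benjamini-Hochberg adjusted p = 3.4e-05 over all window pairs). This SE shares variance over all window pairs. The 2L end went from 23.79 and 24.25 to 24.22 and 24.50 (0.020 ± 0.0097, adjusted p = 0.168), the 3L end from 24.34 and 24.87 to 24.88 and 24.89 (0.017 ± 0.0096, adjusted p = 0.305) and the X end from 26.22 and 26.61 to 26.60 and 26.59 (0.010 ± 0.0095, adjusted p = 0.633). Of all 61 windows, 47 (77%) rose within themselves and none fell, with a median of 0.037, so 1 of 4 ends was fewer than the background. In order of change the 3R end ranked 14 of 60, and the 2L, 3L and X ends ranked 52, 54 and 58. The call for 3R was lost without either Lam-KD map (adjusted p = 0.184 and 0.185) and on the maps as deposited (0.136), and over the mean of each distance the change shrank to 0.00 (adjusted p = 0.986). Without poorly covered bins the 3L end was called (0.031, limma adjusted p = 0.00369). With maps brought to an equal sum within arms, the 2L, 3L and X ends were called too (adjusted p = 1.06e-05, 0.000245 and 0.0205). They were also called without the second control map (0.034, 0.032 and 0.020, adjusted p = 0.0142, 0.00285 and 0.0184).

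Split by distance, the change in the 2L and 3L ends had opposite signs at short and long range. Relative to the rest of the arm, contacts of the 3L end at 120 to 400 kb went from 0.71 and 0.69 to 0.63 and 0.63 (change -0.07 ± 0.01), and those at 420 to 1000 kb from 1.17 and 1.20 to 1.30 and 1.30 (0.12 ± 0.03). In the 2L end the same classes went from 0.48 and 0.50 to 0.42 and 0.44 (-0.06 ± 0.01) and from 0.46 and 0.43 to 0.52 and 0.54 (0.08 ± 0.01). Control and Lam-KD maps did not overlap in these 4 cases. By change, the 3L and 2L ends ranked 59 and 58 of 60 windows in the nearer class and 1 and 2 in the farther one.

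None of this passed the test. Lam-KD maps were lower than both control maps in 26.7% of windows in the nearer class and higher in 23.3% in the farther one. A limma fit over all 239 values of 4 distance classes, added after the data were seen, called 0 in either direction (0%), with 43 at an unadjusted p under 0.05, and gave an adjusted p of 0.202 for each of the 4 values. Over 1000 kb the 3L end went from 0.11 and 0.22 to 0.25 and 0.31 and the X end from -0.54 and -0.57 to -0.76 and -0.65 (adjusted p = 0.258 and 0.206).

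Contacts between ends of different arms kept no common direction upon Lam-KD. Among all pairs of windows from 2 arms, 1.39% rose and 1.04% fell. Of the 6 pairs of ends, 1 fell, that of 3L and 3R, from 0.153 and 0.163 to 0.145 and 0.135 (log2 change -0.17 ± 0.06, limma adjusted p = 0.0461), without overlap of the maps. Of all pairs of windows from 2 arms, 9.12% were lower without overlap. The call did not survive the omission of any one of the 4 maps (changes of -0.22 to -0.13, adjusted p = 0.0744 to 0.656), nor the scalings to equal sums within arms (0.072), to the deposited sums (0.842) or over the mean of the arm pair (0.638), nor the removal of poorly covered bins (0.0504) or of the 200 kb next to the edge (0.0749).

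The other pairs had overlapping maps. Those of 3L and X went from 0.0901 and 0.0939 to 0.112 and 0.0936 (0.15 ± 0.09, adjusted p = 0.286), a difference carried by the first Lam-KD map and called only on the deposited maps (0.30, adjusted p = 0.037). Those of 2L and X went from 0.146 and 0.138 to 0.160 and 0.145 (0.11 ± 0.07, adjusted p = 0.358), and those of 2L and 3L from 0.181 and 0.160 to 0.183 and 0.171 (0.05 ± 0.06). For 2L and 3R the values upon Lam-KD were 0.107 and 0.114 (-0.03 ± 0.08) and for X and 3R 0.0897 and 0.0965 (0.01 ± 0.09). The excess over the rest of the arms was present in both Lam-KD maps for each of the 6 pairs, from 1.21-fold for 2L and 3L in the second map to 2.08-fold for 2L and X in the first.

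Contacts with the rest of the same arm fell in each end, as they did in all 60 windows (100%). The 3R end went from 0.601 and 0.604 to 0.559 and 0.554 (log2 change -0.12 ± 0.01, limma adjusted p = 1.58e-23), the 2L end from 0.570 and 0.582 to 0.537 and 0.537 (-0.10 ± 0.01, adjusted p = 4.5e-19), the 3L end from 0.483 and 0.487 to 0.463 and 0.460 (-0.07 ± 0.01, adjusted p = 2.2e-10) and the X end from 0.755 and 0.764 to 0.732 and 0.718 (-0.07 ± 0.01, adjusted p = 4e-09). Limma shares variance over windows, so these small p-values do not measure the spread of each end's own maps. In the 2L end the control maps differed by 0.031 on the log2 scale. The median of all windows was -0.09, and the direction turned on the maps as deposited, where the 4 changes lay between 0.032 and 0.080. Over the mean of each distance, which takes out what all bins of an arm share, the X end was at 0.03 (adjusted p = 0.119), 3L at 0.01 and 2L at 0.00. The 3R end alone among the 4 was called in this setting, at -0.04 (adjusted p = 0.000143), where 8.33% of windows fell and 5% rose.

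With the windows of its own arm taken one by one, the ends had 23 of 45 pairs called lower and 0 higher, 51.1% against 64.3% of all pairs of windows of 1 arm. With windows of other arms, 5 of 185 pairs were higher and 2 lower, 2.7% and 1.08% against 1.39% and 1.04% of all pairs of windows from 2 arms. As a whole, contacts with the other arms gave no call in any of the 60 windows (0% in either direction). They went from 0.0765 and 0.0705 to 0.0766 and 0.0774 in the X end, from 0.0806 and 0.0750 to 0.0798 and 0.0806 in the 3L end, from 0.102 and 0.0967 to 0.101 and 0.102 in the 2L end and from 0.0918 and 0.0852 to 0.0861 and 0.0874 in the 3R end. With one control map left out some ends were called. Without the first, limma called the ends of 2L (0.07, adjusted p = 0.0124), 3L (0.10, adjusted p = 0.0073) and X (0.13, adjusted p = 0.000858) higher, and without the second it called the 3R end lower (-0.08, adjusted p = 0.0187).

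In these values the 2 control maps differed from each other by more than the means of the conditions did, and only in X did the groups stay apart. Over all windows, contacts with the other arms were higher without overlap in 21.7% and lower in 0%. Relative to other bins of the same arm pair, however, the 3R end was lower upon Lam-KD, at 0.12 and 0.11 against 0.18 and 0.18 in control maps, the lowest change of 60 windows. The 3L end went the other way, from -0.40 and -0.44 to -0.38 and -0.35 (rank 4 of 60), and so did the 2L end, from -0.15 and -0.16 to -0.13 and -0.13 (rank 12), both without overlap. The share of all windows without overlap in this measure is not given here. In the fit over the mean of the arm pair the 3R end fell by 0.06 (limma adjusted p = 3.67e-05), where 13.3% of windows fell and 16.7% rose, and the 3L and 2L ends were not called (adjusted p = 0.239 and 0.703). Relative to the mean of its arm, the 3R end thus lost part of its excess of contacts with the rest of the arm and with other arms, while the other 3 ends gave no call in either.

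Contacts with chr4 fell in the 2L end, from 0.293 and 0.296 to 0.276 and 0.252 (log2 change -0.16 ± 0.04, limma adjusted p = 0.00295), where 5% of windows fell and 1.67% rose. The call was lost without either control map or without the second Lam-KD map (adjusted p = 0.106, 0.185 and 0.557), on the deposited maps (0.917) and over the mean of the arm pair (0.705). In the X end they went from 0.157 and 0.157 to 0.174 and 0.165, without overlap (0.11 ± 0.06, adjusted p = 0.262). In the 3R end they went from 0.187 and 0.187 to 0.180 and 0.171 (-0.09 ± 0.06, adjusted p = 0.375), also without overlap, and in the 3L end from 0.206 and 0.208 to 0.219 and 0.184 (-0.04 ± 0.05, adjusted p = 0.744). Over all windows, contacts with chr4 were lower without overlap in 26.7% and higher in 8.33%.

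**Figure D4:**
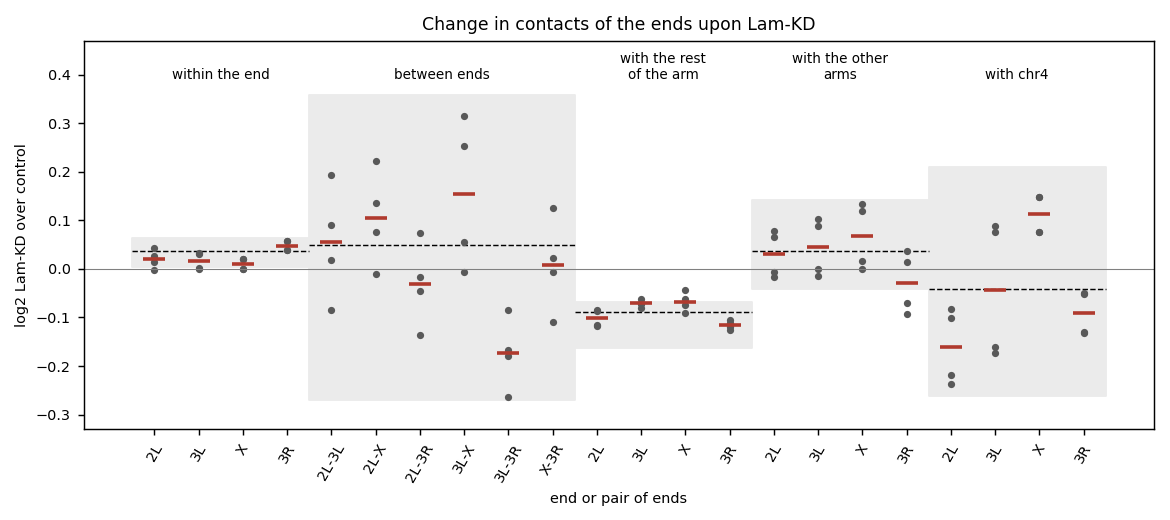
Change in contacts upon Lam-KD (y axis, log2 of Lam-KD over control with maps at an equal sum) within the ends, between ends, with the rest of the arm, with the other arms and with chr4 (x axis, end or pair of ends). Dots are the 4 ratios of a Lam-KD to a control map, red bars their mean, dashed lines the median of all windows or pairs of the kind and grey bands their range. All 4 ends lie below 0 with the rest of the arm, near the median of all windows, and the 3L and 3R pair is the only pair of ends with its 4 ratios below 0.

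H3 pan-acetylation over input of the whole ends was slightly higher upon Lam-KD in X and 3R and differed between libraries of one condition in 2L and 3L, and no end passed the test. The 3L end was at -0.44 and -0.25 after -0.43 and -0.51 in control cells, the X end at -0.14 and -0.07 after -0.21 and -0.24, the 2L end at -0.52 and -0.29 after -0.37 and -0.48 and the 3R end at 0.00 and -0.00 after -0.07 and -0.03. Over input, both Lam-KD libraries lay above both control libraries in X and 3R but not in 2L and 3L. In the ChIP reads alone they did so in 3L too, where the ratios ran from 0.014 to 0.29 on the log2 scale. In these reads the second Lam-KD library stood 0.20 and 0.18 above the first in 2L and 3L. The share of all windows without overlap is not given here. In the edgeR test of ChIP reads over 2-Mb windows, 16.4% of windows rose and 13.1% fell, and none of the ends was called (log2 0.15, adjusted p = 0.281 for 3L, 0.15, 0.101 for X, 0.05, 0.678 for 2L and 0.02, 0.281 for 3R). By DESeq2, which called 24.6% of windows higher and 24.6% lower, the X end was called (0.14, adjusted p = 0.0105). Over input, 8.2% of windows rose and 8.2% fell, again with none of the ends among them. With TMM scaling 6 windows rose and 10 fell in place of 10 and 8, and over input 1 and 7 in place of 5 and 5. In order of change chr4 was first of 61 windows (0.22, adjusted p = 0.431), followed by the 3L and X ends.

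At 20-kb resolution, 170 of 387 bins of the ends rose and 21 fell in ChIP reads, 43.9% and 5.43% against 49.4% and 8.57% of all bins. The rising bins were 35 of 93 in the 2L end, 40 of 99 in the 3L end, 50 of 95 in the X end and 45 of 100 in the 3R end, and the median bin changed by 0.25, 0.35, 0.32 and 0.17 on the log2 scale against 0.21 over all bins. None of these calls held once reads lost to removed duplicates were estimated and restored, or bins near the limit were left out (0 called in either direction, with 135 and 98 of the 387 at an unadjusted p under 0.05), nor without the second control library (0 called, 105 at an unadjusted p under 0.05). The median change of the ends was 0.20 with restored reads, 0.14 without bins near the limit and 0.21 without that library, against 0.26 in the main fit. Over all bins the medians in these settings were 0.16, 0.09 and 0.18. With TMM scaling 2 bins of the ends rose and 42 fell, 0.517% and 10.9% against 0.334% and 15.8% of all bins, and the median change was 0.09 in the ends against 0.04 over all bins. By DESeq2 1 rose and 53 fell, 0.258% and 13.7% against 0.0836% and 18.9%, with medians of 0.08 and 0.03. The number and the main direction of the calls thus depended on the scaling and on the treatment of dense bins.

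The libraries of one condition also differed along the ends. Without the first Lam-KD library 240 bins of the ends rose and 12 fell, 62% and 3.1% against 49.3% and 8.01% of all bins. Without the second 93 rose and 25 fell, 24% and 6.46% against 39.5% and 6.57%. In the 10 steps next to the edge of 3L the mean log2 over input was -0.89 and -1.13 in control cells, -0.88 in the first Lam-KD library and -0.51 in the second. Over input the first Lam-KD library thus matched the first control library there. In the ChIP reads alone, 9 of these 10 steps were higher in each of the 4 ratios of a Lam-KD to a control library, with a mean log2 change of 0.36. Next to the edge of the other ends this held for 9 of 10 steps in X, 7 in 3R and 5 in 2L. In 3R and in 2L 1 step was lower in each ratio. The share over all steps of the genome is not given here, and the median 20-kb bin of the genome rose by 0.21. Over input, the 10 steps next to the edge of X had -0.45 and -0.55 in control cells and -0.42 and -0.19 upon Lam-KD, and those of 3R -0.24 and -0.23 against -0.14 and -0.11.

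Taking input into account, 12 bins of the ends rose and 3 fell, 3.1% and 0.775% against 4.09% and 2.52% of all bins, whereas with TMM scaling 2 rose and 20 fell, 0.517% and 5.17% against 0.267% and 8.02%. One of the 12, chr3L:23740001-23760000, was the only bin still called with restored reads. Its ChIP reads were 658 and 855 in control cells and 2036 and 1986 upon Lam-KD, about as many relative to the depth of the libraries, whereas its input reads fell from 687 and 480 to 197 and 328. The change over input of 1.57 (edgeR, adjusted p = 0.000541) thus lay in the input reads, and the ChIP reads alone changed by 0.22 (adjusted p = 0.15). It was the 1 of 387 bins of the ends called lower in the test of input reads between conditions, where 0.0501% of all bins fell and 0.0167% rose.

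The largest changes of ChIP reads among called bins with all 4 ratios in one direction were moderate. In the 2L end they were a rise at chr2L:22920001-22940000 (535 and 483 reads in control cells, 1556 and 1882 upon Lam-KD, log2 0.57, edgeR adjusted p = 0.0153) and a fall at chr2L:22460001-22480000 (5095 and 4987, then 8108 and 9545 reads, -0.38, adjusted p = 0.0158), which holds the dense 1-kb bin above. In the 3L end chr3L:24000001-24020000 rose by 0.53 (238 and 208, then 645 and 822 reads) and the most acetylated bin, chr3L:22860001-22880000, was the one that fell by most (-0.34, and -0.14 with adjusted p = 0.364 once reads lost as duplicates were restored). In the X end chrX:22140001-22160000 rose by 0.48 and chrX:21580001-21600000, inside the empty stretch of the contact map, fell by 0.59 (264 and 253, then 381 and 401 reads). In the 3R end chr3R:1-20000, the first bin of the arm, rose by 0.40 and the most acetylated bin, chr3R:1280001-1300000, fell by 0.39.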

How the data were processed

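The authors aligned Hi-C reads to dm3 with Bowtie2 2.2.1 and deposited iteratively corrected contact signal per pair of 20-kb bins. For ChIP and input they deposited read counts per 1-kb bin on dm3 after removal of duplicates (bedtools 2.16.2 is named in the submitters' processing notes). RNA tables (4 of 16 samples) were not used. The regions, lists and comparisons were chosen with earlier results of these data known.

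Maps were brought to equal sums, and only bins at least 2 bins apart were used within a window. Log2 contacts of all 1891 pairs of 2-Mb windows were compared with limma 3.58.1 (empirical Bayes with trend, which shares variance over pairs). Fits over windows with the rest of the arm and with other arms, and by distance class, were added after the data were seen. ChIP and input counts were summed over 20-kb bins and 2-Mb windows, divided by the autosomal sum, required to average at least 10 reads, and tested with edgeR 4.0.16 (quasi-likelihood). DESeq2 1.42.0, TMM, other scalings, filters, and omission of each sample were alternatives, and reads lost as duplicates were restored assuming uniform starts. P-values were adjusted by Benjamini-Hochberg and called at 0.05. The edgeR fit of ChIP reads in 20-kb bins and the limma fit of window pairs were tested on simulated data, the other steps were not (R 4.3.3, Python 3.11.15).

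Named regions were the ends, their pairs and partners in full, and in each end the 20-kb bins with the highest and lowest control ChIP over input, the called bins with the largest rise and fall and equal direction in all 4 library ratios, and the 1-kb bin with the most ChIP per input read among those with at least 10 input reads in each control library. Replicate numbers were not treated as pairs between conditions, since no source ties them. Within a condition, the methods of the study take the input from the same chromatin before the antibody is added. Values over input divide each ChIP library by the input of the same number. The main edgeR tests that include input did not use this pairing. The depth of corrected maps in read pairs is not recoverable from their values, and with 2 samples per condition an exact permutation test cannot go below p = 0.333.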

Additional observations from a re-analysis of the deposited data

How the results depend on the processing

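Leaving out the bins, edges or samples named here changed the values as follows, and where no cause is given the cause was not tested. Of the 2-Mb window pairs, 300 were called with maps at an equal sum, 164 (all higher) on the maps as deposited, where the median of all pairs moved from 0.02 to 0.17, and 0 over the mean of the distance or arm pair, with 171 at an unadjusted p under 0.05. Leaving out one map gave 126 to 255. The deposited sums moved the mean log2 change of the ends from 0.02 to 0.17 within ends, from 0.02 to 0.17 between ends, from -0.089 to 0.058 with the rest of the arm, from 0.03 to 0.18 with other arms and from -0.05 to 0.10 with chr4. They turned the fall with the rest of the arm to 0.046 for 2L, 0.076 for 3L, 0.080 for X and 0.032 for 3R, and the uncalled changes of 2L with 3R to 0.12, of 3R with other arms to 0.12, and of 3L and 3R with chr4 to 0.10 and 0.057. Over the mean of the distance or arm pair the mean change was 0.0059 within ends and -0.0013 with the rest of the arm. In that setting 2L, 3L and X stood at 0.00044, 0.011 and 0.026 with the rest of the arm, X at -0.064 within itself and at -0.020 with other arms, X with 3R at -0.072 and 3L with chr4 at 0.028.

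Without poorly covered bins, changes that had not been called turned for 2L with 3L (-0.058), 3L with X (-0.00072) and X with 3R (-0.0081). In control cells the mean log2 excess of contacts between ends, 0.58, became 0.61 without poorly covered bins, 0.52 without the 200 kb next to the edge and 0.76 as a median over 100-kb blocks. The excess within ends, 0.27, became 0.25 and 0.18 under the first 2 of these, and that with the rest of the arm, 0.049, became 0.082 and 0.055. The mean log2 acetylation over input of the ends, -0.29, was -0.61 as a median over 20-kb bins and -0.33 with restored counts. When one map was left out, changes that were not called with all 4 maps ranged from -0.00044 to 0.020 within X, -0.033 to 0.14 for 2L with 3L, -0.090 to 0.028 for 2L with 3R, -0.058 to 0.074 for X with 3R, -0.012 to 0.072, -0.0076 to 0.097 and -0.082 to 0.025 for 2L, 3L and 3R with other arms, and -0.17 to 0.082 for 3L with chr4. Of these, limma called X within itself (0.020, adjusted p = 0.0184) and 3R with other arms (-0.082, 0.0187) without the second control map, and 2L and 3L with other arms (0.072 and 0.097, 0.0124 and 0.0073) without the first.

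The count of 20-kb bins called in ChIP reads, 3470 of all and 191 of the ends, fell to 967 and 44 with TMM scaling, 1133 and 54 by DESeq2, and 0 and 0 with restored counts or without dense 1-kb bins. Leaving out one library gave 0 to 3426 and 0 to 252, with 0 in both without the second control library. Over input, 396 and 15 became 1 and 1 with restored counts, and 1 to 665 and 1 to 76 without one library. Of 18 windows of 2 Mb called, 0 were left with restored counts, 0 without dense bins, 30 were called by DESeq2, and 0 to 1 were called without one library. The uncalled change of the 2L end in ChIP reads ranged from -0.053 to 0.15 and over input from -0.10 to 0.13 without one library, and that of the 3R end was -0.0067 without dense bins.

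With the replicate number as a block, 239 window pairs were called. The pair of 3L and 3R was not (adjusted p = 0.0798, limma), nor was any 2-Mb window in ChIP reads (0). The blocked ChIP fit called 1986 bins, 100 of them in the ends, and over input 69 and 4. Deviations of samples with the same number had a correlation of -0.06 over window pairs and -0.58 over ChIP bins. A crossed pairing of the ChIP libraries, chosen after seeing the data, called 4807 bins, 320 of them in the ends. With 1-Mb windows the calls within ends included the megabase of 2L farther from the edge (0.04, adjusted p = 0.019). ChIP against input in control cells, with 5033 bins called and 340 in the ends, gave 4283 to 4982 and 297 to 335 without one library. Block medians were run for contacts between ends only. Depth limits the precision of contacts between ends, of whose bin pairs at most 16.09% were above 0.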
